A study of Mus musculus with 12 samples.

Results

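The Zfp genes encode zinc finger proteins of the mouse, and the members described here are the N6-methyladenosine (m6A) peaks in genes whose symbol is Zfp followed by a digit. Of 38343 peaks listed over both days of the study, 1067 lay in such genes, 499 at day 4 and 568 at day 0. They fell in 184 genes, and 229 Zfp symbols appeared in at least 1 of the 4 tables used. Of the 184 genes, 73 were in neither table of changes, and the 45 symbols without a peak were all in the expression table. The study compared primary mouse keratinocytes at day 4 after a calcium shift, the differentiated state, with cells at day 0, the undifferentiated state. The cells came from newborn mouse epidermis and were grown to passage 3 on 3T3 fibroblast feeder cells arrested with mitomycin C, in E-media with 15% serum and 0.05 mM calcium; no strain or genotype is labelled. Each day had 3 m6A immunoprecipitated and 3 input libraries, 12 in all, made from polyadenylated RNA with a stranded kit.

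m6A is the most abundant internal modification of mRNA. It is deposited on adenosines in a short sequence context, often near stop codons and in long exons, and is read by proteins that alter the stability and translation of the transcript. Most Zfp proteins carry arrays of C2H2 zinc fingers that bind DNA. Many of these also have a KRAB domain, which recruits Trim28 (KAP1) and with it Setdb1, HP1 proteins and the NuRD complex to silence retroelements and imprinted loci. The finger array of a KRAB gene is usually encoded in a single long last exon. A smaller group, Zfp36 and its relatives, has CCCH fingers that bind AU-rich mRNA and start its decay.

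The peak lists hold 1 authors' enrichment score and 1 unadjusted p per peak and no value per library, so depth is unknown and no spread between the 3 replicates could be set beside a count of peaks. Scores are used only within a list, since the sources used here do not state their scaling. The headers of the comparison tables do not name their direction. It was read outside the Zfp genes: 452 of 482 listed genes with peaks at day 4 only had a positive expression change (93.8%), against 31 of 789 with peaks at day 0 only (3.93%). Likewise 411 of 416 called sites in a day 4 peak only were positive (98.8%), against 29 of 117 in a day 0 peak only (24.8%). Positive values are therefore given as higher at day 4. All 8 markers of basal keratinocytes that were checked carried m6A peaks in each list, while 34.5% of all protein-coding genes had a peak on either day. In the authors' deposited table Krt5 and Krt14 were listed as higher at day 4, by 0.96 and 1.06 on the log2 scale, 5 were lower and Lama3 was not listed. Of 17 fibroblast markers, which the feeder cells would carry, 6 were listed as higher at day 4, 2 as lower and 9 not at all in the authors' deposited table, with a median of 2.35 on the log2 scale over the 8 listed. Over all tested genes 27.1% were listed as higher and 26.4% as lower. The 2 lower markers were Col6a1 (-2.07) and Col6a2 (-2.42), and those not listed include Col1a1, Col1a2, Col3a1 and Vim. Mean normalized counts were low for Col5a2 (5.63), Pdgfra (50.9), Col5a1 (65.8) and Col6a1 (86.4), in the authors' deposited table. Higher counts were listed for the rising markers Acta2 (count 1187, log2 change 2.97), Postn (305, 3.66) and Fn1 (2763, 1.07), in the same table. A share of feeder cell RNA in the Zfp values was not tested.

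Sequences are shown for the 5 Zfp genes in which a peak or called site covered an m6A-type motif within the first 50 transcribed bases, the part of a transcript that the RefSeq promoter table (GRCm38.p6, the assembly of mm10) reaches. The motif searched was AAC or GAC preceded by A, G or T and followed by A, C or T, on the sense strand. Each line gives 30 bases, 5′ to 3′, with capitals marking a motif match that lies wholly under a peak or called site. Matches outside the covered bases are left in lower case.
Zfp146: ggggcagcgagtGGACAttttggtctttgt
Zfp219: caggacccggatccaagggAGACCtggagc
Zfp36l1: gggcgccgggagcaggcgtgtgGGACTcct
Zfp740: gcttcaccaagagaattcaacttggAAACC
Zfp91: attttttcagAGACTttcatccggcaacgg
The Zfp146 bases are chr7:30169706-30169735 on the minus strand, and a peak of both days covered the motif. The Zfp219 bases are chr14:52019664-52019693 on the minus strand, and peaks of both days cover only their 3′ part, the motif in capitals included. For Zfp36l1, chr12:80112964-80112993 on the minus strand, the motif lay in a called site that gained m6A at day 4 and in no listed peak. For Zfp740, chr15:102204591-102204620 on the plus strand, it lay in a day 0 peak and in a site that lost m6A. For Zfp91, chr19:12796094-12796123 on the minus strand, a peak of both days covered the first base onward, and the same start serves the predicted gene Gm44505.

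In all, 11 Zfp genes had a peak or site in their first 50 bases, 8 with a day 4 peak and 7 with a day 0 peak, and 153 of the 184 Zfp genes with peaks had a window in the table. An edge of a peak or site lay exactly on the annotated first base in Zfp36, Zfp36l1, Zfp445, Zfp827 and Zfp91. The motif occurred in 44.4% of Zfp windows of 50 bases on the sense strand and in 62.1% on the antisense strand. Over all protein-coding genes it occurred in 50.5% of sense and 52.9% of antisense windows. A motif under a peak is a match of letters and does not place the methylated base.

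Peaks were carried by 45.8% of the 397 protein-coding Zfp genes of RefSeq, against 34.5% of all 21896 protein-coding genes. The day 4 list held 499 Zfp peaks in 156 genes, or 3.20 per gene with a peak, and the day 0 list 568 peaks in 166 genes, or 3.42 per gene. Over all genes there were 2.65 peaks per gene at day 4 and 2.70 at day 0. At least 5 peaks were listed for 22.4% of Zfp genes with a peak at day 4 and for 25.9% at day 0, against 13.4% and 14.6% of all genes with a peak on those days. Zbtb genes, which pair zinc fingers with a BTB domain, stood close to the Zfp genes, with 3.09 peaks per gene at day 4 and 3.21 at day 0. These are 1 list per day, so no test of the difference was possible.

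The Zfp genes with peaks lay on 20 chromosomes, with the largest group on chromosome 7. There 45 of the 59 Zfp symbols that appeared in any table used had a peak, against 184 of 229 such symbols in all. Chromosome 17 held 21 and chromosome 8 held 16 Zfp genes with a peak. Relative to day 0, the number of peaks at day 4 was higher in 58 Zfp genes, lower in 82 and the same in 44. Over all 7992 genes with a peak it was higher at day 4 in 2337 and lower in 2931.

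Zfp322a had the most peaks at day 4, with 9 at day 4 and 2 at day 0. Of these 9 peaks, 8 lay within the stretches of the 2 day 0 peaks, which spanned 950 and 899 bp, and the ninth, spanning 4916 bp, was outside them. The higher number in Zfp322a is thus mostly the same stretch listed in shorter pieces. The next at day 4 were Zfp106, Zfp217, Zfp292, Zfp407, Zfp608, Zfp609, Zfp638 and Zfp646, with 8 peaks each. Zfp407 had 11 peaks at day 0 and Zfp106, an RNA-binding protein needed for motor nerve function in the mouse, had 10. Zfp217, a co-repressor that binds the m6A writer Mettl3 in mouse embryonic stem cells, had 8 peaks at day 4, against 6 at day 0. The genes whose number of peaks was lower at day 4 by at least 6, named after their values were seen, were Zfp74 (0 peaks at day 4, against 7 at day 0), Zfp719 (1, against 7), Zfp26 (1, against 7), Zfp397 (3, against 9) and Zfp518b (0, against 6). Some of these day 0 peaks were weak. With peaks at an unadjusted p under 1e-05 only, Zfp74 had 0 at day 4 and 4 at day 0, Zfp719 had 1 and 2, and Zfp518b had 0 and 3. Zfp26 still had 1 and 7 and Zfp397 still had 3 and 9. Over all Zfp genes 471 peaks at day 4 and 492 at day 0 met that limit. In Zfp26 the listed peaks covered 50 bp at day 4 and 549 bp at day 0, and in Zfp719 they covered 50 and 650 bp.

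**Figure D1:**
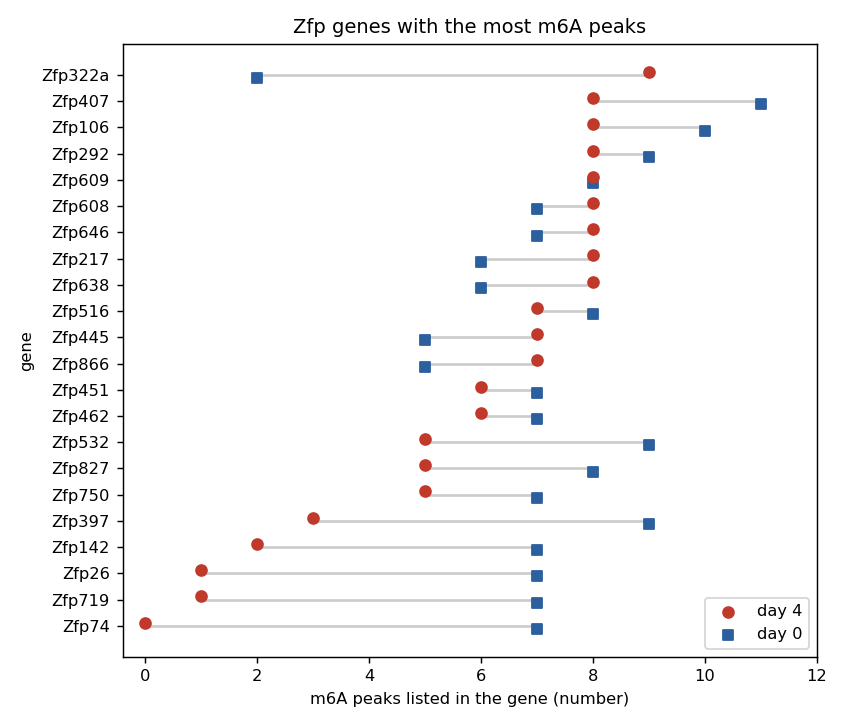
Number of m6A peaks (horizontal) listed in each Zfp gene (vertical) that has at least 7 peaks on either day. Red circles are day 4 and blue squares day 0, with 1 list per day and no error. Zfp322a has 9 peaks at day 4 and 2 at day 0, and Zfp74 has 0 and 7.

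A day 0 peak overlapped 414 of the 499 Zfp peaks of day 4 (83.0%), and a day 4 peak overlapped 375 of the 568 Zfp peaks of day 0 (66.0%). Over all genes 78.9% of day 4 peaks and 70.2% of day 0 peaks were shared in this way. In Zbtb genes 86.3% and 80.7% were shared. Long spans were rarer among Zfp peaks than among all peaks, with span measured along the genome and any introns included. A span over 1000 bp was found for 4.41% of them at day 4 and 5.99% at day 0, against 12.2% and 14.6% of all peaks. At the median Zfp peaks spanned 150 bp in the day 4 list and 149 bp in the day 0 list, against 150 and 198 bp over all peaks. A span of 50 bp was found for 26.5% of Zfp peaks at day 4 and 31.9% at day 0, against 30.2% and 28.7% of all peaks.

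The strongest Zfp peak of both lists lay in Zfp91, which encodes a ubiquitin ligase, at chr19:12769818-12770462 at day 4 and chr19:12769768-12770462 at day 0. Its authors' score was 605 at day 4, rank 36 of 18423, and 1292 at day 0, rank 16 of 19920. Its nearer edge lay 2879 bp from the 3′ end of the gene at day 4. The next scores at day 4 belonged to Zfp82 (410), Zfp654 (364), Zfp871 (350) and Zfp597 (341). At day 0 they belonged to Zfp266 (958), Zfp655 (745), Zfp277 (520) and Zfp871 (485). Each of these 10 peaks overlapped a peak of the other day. As a group the Zfp peaks were not among the strong ones: 6.01% of them at day 4 and 5.63% at day 0 ranked in the top 10% of their list. Zbtb peaks reached that top of the list more often, at 15.7% at day 4 and 13.8% at day 0. The median score of Zfp peaks was 17.4 at day 4 and 19.0 at day 0, against 17.1 and 21.4 over all peaks of those days.

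Few Zfp peaks lay close to either end of the gene. Within 1000 bp of the annotated 3′ end, measured along the genome from the nearer edge, were 66 of 496 placed Zfp peaks at day 4 (13.3%) and 82 of 562 at day 0 (14.6%). The shares over all peaks were 31.1% at day 4 and 29.6% at day 0. The gap closed with distance, and within 5000 bp were 66.7% of Zfp peaks at day 4 and 66.0% at day 0, against 65.7% and 64.1% of all peaks. Zbtb peaks had a like depletion, with 14.7% at day 4 and 15.6% at day 0 within 1000 bp. The annotated start was within 1000 bp of 3.83% of Zfp peaks at day 4 and 3.91% at day 0, against 11.3% and 9.18% of all peaks. The median Zfp peak was 3019.5 bp from the 3′ end at day 4 and 3017 bp at day 0. No exon model was used, so coding and untranslated bases are not separated.

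**Figure D2:**
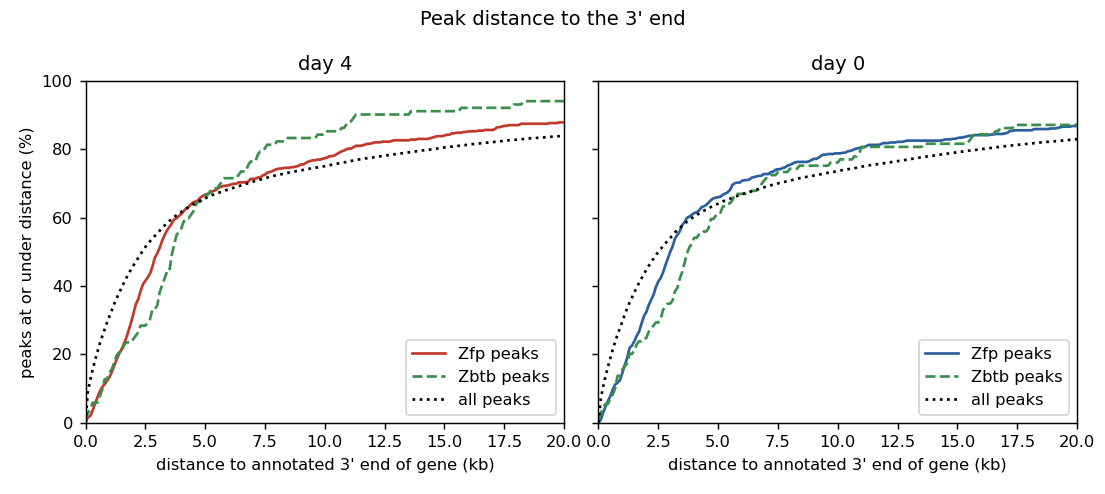
Cumulative share of peaks (percent, vertical) at or under a distance in kb along the genome from the annotated 3′ end of their gene (horizontal), at day 4 (left) and day 0 (right). Solid lines are Zfp peaks, dashed lines Zbtb peaks and dotted lines all peaks. The Zfp line is under that of all peaks near the end, at 13.3% against 31.1% within 1000 bp at day 4, and meets it by 5000 bp.

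Peaks were listed on both days in 138 Zfp genes, at day 4 only in 18 and at day 0 only in 28. Among the 18 with peaks at day 4 only, 14 were listed as higher at day 4, per the authors' deposited table, 1 as lower (Zfp692, named after its value was seen) and 3 were not listed. Over all 613 genes with peaks at day 4 only, 76.0% were listed as higher and 5.06% as lower. Among the 28 Zfp genes with peaks at day 0 only, 1 was listed as higher at day 4 (Zfp768, also named after its value was seen), 7 as lower and 20 were not listed. Over all 1047 such genes, 73.1% were listed as lower and 3.06% as higher. So most Zfp genes that had peaks at day 0 only were absent from the expression table, whether not called or not tested, unlike most genes of that kind, a difference that was not tested. In these bulk samples fewer cells that express a gene and less of its RNA per cell cannot be told apart.

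The highest scores at day 4 only were those of Zfp563 (228), Zfp229 (138), Zfp748 (86.7), Zfp174 (85.2) and Zfp248 (84.2). In the authors' deposited table the expression of Zfp563, Zfp229 and Zfp174 was higher at day 4, by 0.67, 0.87 and 1.33 on the log2 scale, and Zfp748 and Zfp248 were not listed. The highest at day 0 only were Zfp111 (168), Zfp157 (150), Zfp788 (147), Zfp120 (143) and Zfp365 (125). Of these, Zfp788 and Zfp365 were lower at day 4 in the authors' deposited table, by log2 changes of -0.67 and -0.90, and the other three were not listed. In a peak list a low transcript level and a lack of m6A cannot be told apart.

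The methylation table lists sites whose m6A differed between days at a false discovery rate (FDR) under 0.05. It gives a log fold change per site whose base is not stated. In that table, the authors' deposited table of sites, 58 sites lay in 45 Zfp genes: 35 gained m6A at day 4, in 26 genes, and 23 lost it, in 20 genes. Over all genes 2561 of about 36796 sites tested were called (6.96%), the number tested being inferred from the adjusted values; how many Zfp sites were tested is not known. Gains made up 60.3% of called Zfp sites and 68.8% of all called sites. The 34 finite Zfp gains had a median of 1.77, against 1.82 for all gains, and the 20 finite Zfp losses a median of -0.68, against -0.83 for all losses, in the authors' deposited table. A single gene, Zfp664, had both a gain (5.02) and a loss (-0.61) in the authors' deposited table, so 25 genes had gains only and 19 losses only.

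A larger share of the gains than of the losses lay outside listed peaks, which was not tested. Of the 35 Zfp gains, 17 were in no listed peak of either day (48.6%), against 28.1% of all gains, and of the 23 losses 4 were (17.4%), against 11.0% of all losses. When the peaks of both days were joined into regions, the 619 Zfp regions held 19 with a called gain (3.07%) and 27 with a called loss (4.36%). Among all 22285 regions 6.78% held a gain and 3.97% a loss. Inside peaks, therefore, Zfp gains were no more numerous than losses. Near the 3′ end lay 2 of the 35 Zfp gains, in Zfp750 and Zfp513 (5.71% within 1000 bp), against 38.6% of all gains. Of Zfp losses 6 of 23 lay there (26.1%), in Zfp110, Zfp91, Zfp322a, Zfp1, Zfp954 and Zfp131, against 25.6% of all losses.

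The 10 largest finite gains all lay outside listed peaks, in sites that spanned 50 to 12983 bp. Zfp598, the ubiquitin ligase that marks collided ribosomes, had the largest, a site of 50 bp at chr17:24679817-24679866 with a log fold change of 6.08 (FDR 0.014) in the authors' deposited table. Zfp148, a factor that binds GC-rich promoters, followed with 5.36 (FDR 5.0e-09) at chr16:33427208-33427257, a site that also spanned 50 bp, in the authors' deposited table. Next in the authors' deposited table were Zfp664 (5.02), Zfp821 (4.98), Zfp282 (4.22), Zfp266 (3.22), Zfp316 (3.09), Zfp36l2 (2.92), Zfp53 (2.83) and Zfp668 (2.58). A second site of Zfp282, at chr6:47905004-47905352 under peaks of both days, gained 2.39 with the lowest FDR of any Zfp site, 1.3e-18, in the authors' deposited table. The smaller gains, in the authors' deposited table, also include Zfp316 (2.55), Zfp865 (2.13), Zfp319 (1.56 and 1.68), Zfp408 (0.97 and 1.20), Zfp574 (1.12), Zfp513 (0.95), Zfp276 (0.68), Zfp746 (0.68) and Zfp553 (0.51). Zfp574 is the one Zfp gene with a called site and no listed peak at all. A site of Zfp687 had an infinite gain in the authors' deposited table, which leaves its size unknown.

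The largest finite loss was that of Zfp322a, -4.96 (FDR 0.013) in the authors' deposited table, in a site of 50 bp that lay 300 bp from the 3′ end and outside listed peaks. It was followed in the authors' deposited table by Zfp1 (-2.06), Zfp954 (-1.84), Zfp451 (-1.48), Zfp407 (-0.96), Zfp62 (-0.87), Zfp397 (-0.75), Zfp740 (-0.75), Zfp869 (-0.69) and Zfp292 (-0.69). All of these sites except those of Zfp322a and Zfp954 overlapped a listed peak. The smaller losses in the authors' deposited table, all inside peaks of both days, also include Zfp35 (-0.59), Zfp800 (-0.56), Zfp869 (-0.53 at its second site), Zfp260 (-0.53), Zfp131 (-0.49), Zfp322a (-0.48 at its second site) and Zfp146 (-0.44). Infinite losses were listed for Zfp110, Zfp397 and Zfp91 in the authors' deposited table. The Zfp91 site (FDR 1.3e-06) lay 496 bp from the 3′ end, apart from the gene's strongest peak, which was listed on both days.

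**Figure D3:**
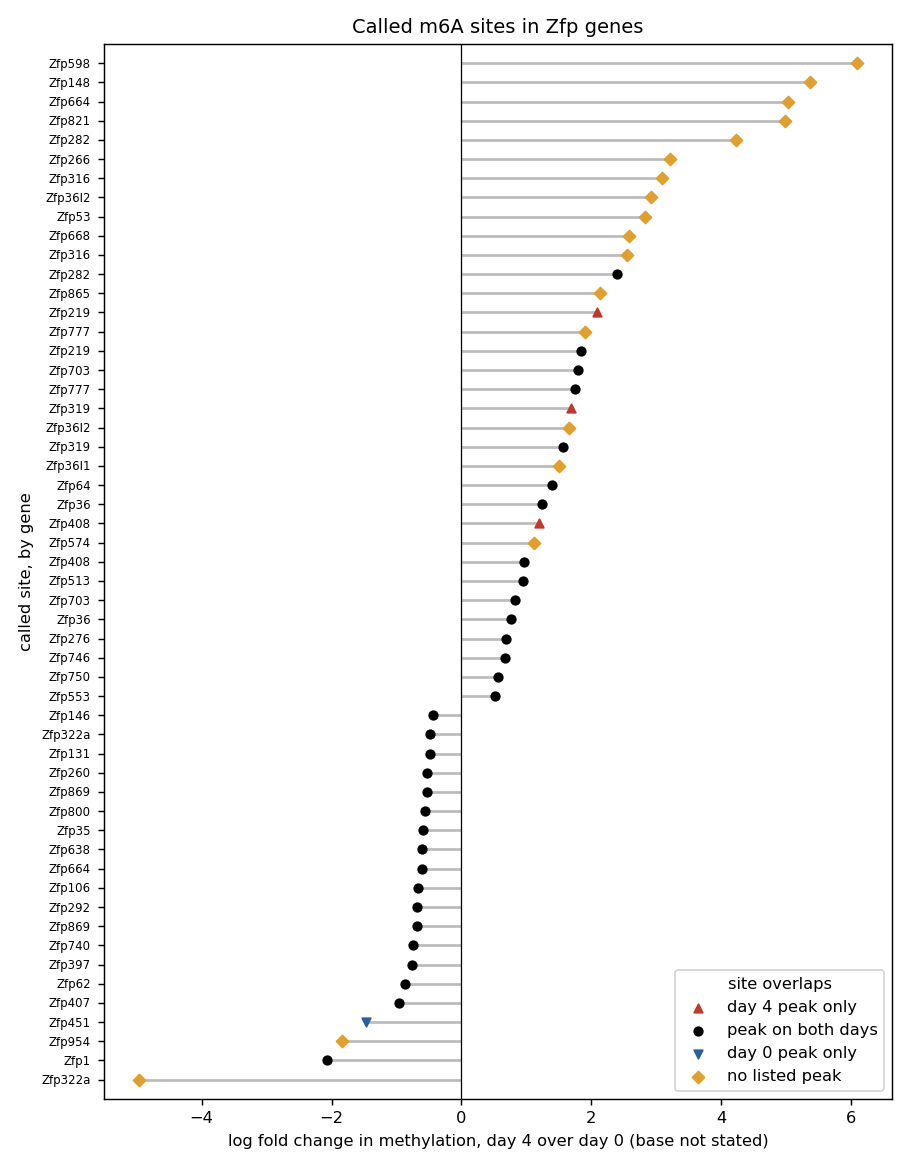
Log fold change in methylation, day 4 over day 0 (horizontal, base not stated), of the 54 called Zfp sites with a finite value, one line per site with its gene. Red triangles overlap a day 4 peak only, black circles peaks of both days, blue triangles a day 0 peak only and orange diamonds no listed peak. The 10 largest gains are all orange diamonds.

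By role, the called sites of the mRNA decay factors were all gains, in a table where 68.8% of sites are gains. Zfp36 (tristetraprolin), Zfp36l1 and Zfp36l2 together had 5 called sites in the authors' deposited table: 0.77 and 1.23 in Zfp36, 1.51 in Zfp36l1, and 1.65 and 2.92 in Zfp36l2. The Zfp36 sites lay in peaks of both days, while those of Zfp36l1 and Zfp36l2 lay in no listed peak. The numbers of peaks in the 3 genes differed little between days, with 4 at day 4 and 4 at day 0 in Zfp36, 3 and 2 in Zfp36l1, and 2 and 3 in Zfp36l2. Expression of the 3 genes did not go together. In the authors' deposited table Zfp36l1 was higher at day 4, by 0.93 (SE 0.14, adjusted p 8.4e-11), and Zfp36l2 was lower, by a log2 change of -1.08 (SE 0.10, adjusted p 7.6e-25), at a mean normalized count of 4839. Zfp36 was not listed in the expression table, and the fourth relative, Zfp36l3, was in none of the tables.

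Zfp750 is a transcription factor of epidermal differentiation that acts downstream of p63. Its expression was higher at day 4, per the authors' deposited table, by 1.19 on the log2 scale (SE 0.12, adjusted p 1.5e-20), at a mean normalized count of 2853. It had 5 peaks at day 4 and 7 at day 0, and 1 site, at chr11:121511724-121512322, gained 0.56 (FDR 5.9e-04) in the authors' deposited table. That site spanned 1 day 4 peak where the day 0 list had 2.

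Among 12 Zfp genes of chromatin complexes, 11 had peaks, 4 were higher at day 4, per the authors' deposited table, and 0 were listed as lower. Of all genes with a peak, 31.0% were listed as higher and 34.6% as lower. Zfp219, a partner of NuRD, had 6 peaks at day 4 and 3 at day 0 and gained at 2 sites, by 1.84 and 2.09, with expression higher by 0.45 (SE 0.16) in the authors' deposited table. Zfp217 was higher by 0.64 (SE 0.13) without a called site, and Zfp687, a subunit of a Zmynd8 complex, by 0.43 (SE 0.12) in the authors' deposited table. Zfp532 was higher by 0.37 (SE 0.11) in the authors' deposited table, with 5 peaks at day 4 and 9 at day 0. Zfp451, a SUMO ligase, was the one gene of this group with a loss. Zfp462, which brings the H3K9 methyltransferases G9a and GLP to chromatin, had 6 peaks at day 4 and 7 at day 0 and was in neither comparison table. Zfp281, Zfp592, Zfp644, Zfp335 and Zfp827 also had peaks and no listed change.

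Of 7 regulators of imprints and retroelements, 3 had peaks. Zfp445, which maintains imprints, had 7 peaks at day 4 and 5 at day 0 and no listed change. Zfp809, which silences murine leukaemia viruses, had 4 peaks at day 4 and 5 at day 0, and its expression was higher at day 4, by 0.69 (SE 0.16), in the authors' deposited table. Zfp568, a KRAB repressor of a placental Igf2 transcript, had 5 peaks on each day and was lower, by a log2 change of -0.85 (SE 0.10), in the authors' deposited table. Zfp57, Zfp42, Zfp932 and Zfp13 had no peak and no listed change.

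Among 4 activators found in the tables, Zfp143 was higher by 0.57 (SE 0.10) and Zfp410 by 0.36 (SE 0.10), while Zfp148 was lower, by a log2 change of -0.41 (SE 0.13), in the authors' deposited table; Zfp384 was not listed. Zfp410 is known for acting on the NuRD gene Chd4, which was higher at day 4 by 0.33 (SE 0.14) in the authors' deposited table; Zfp410 had no peak. Of 7 genes of cell fate, Zfp703 had 2 gains, 0.83 and 1.79, with expression higher by 0.40 (SE 0.15), and Zfp516, an activator of brown fat genes, was lower by a log2 change of -0.75 (SE 0.10) in the authors' deposited table. Zfp423, Zfp521, Zfp503, Zfp536 and Zfp488 had no peak and no listed change.

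The 3 called sites of the RNA and mitosis group, which has 6 genes, were losses, as were 39.7% of called Zfp sites and 31.2% of all called sites. In the authors' deposited table the losses were -0.66 in Zfp106, -0.60 in Zfp638, which joins the HUSH complex in silencing unintegrated retroviral DNA, and an infinite one in Zfp91. Zfp91, given above as a ubiquitin ligase gene, was in this group only by the list used, and its site lay in no listed peak. Expression of Zfp106 was lower at day 4, by a log2 change of -0.43 (SE 0.12), as was that of the splicing-linked Zfp326, at -0.60 (SE 0.14), in the authors' deposited table. The splicing factor Zfp830 was higher, by 0.31 (SE 0.12), in the authors' deposited table. Zfp207, a kinetochore protein that binds Bub3, had 2 peaks at day 4 and 1 at day 0 and no listed change. Of the ribosome group, Zfp593, whose yeast relative takes part in export of the large subunit, was lower by a log2 change of -1.14 (SE 0.23) in the authors' deposited table and had its 2 peaks at day 0 only. Zfp598 was not listed for expression, and Zfp622 was in none of the tables.

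Expression was listed for 138 Zfp genes in the authors' deposited table, which gives DESeq2 values for genes with an adjusted p under 0.05. Of these, 89 were higher and 49 lower at day 4 (64.5% higher), and 26 had a mean normalized count under 100. Over all genes 53.5% of about 14924 tested were listed, 27.1% as higher and 26.4% as lower, and 50.6% of those listed were higher. Of the 184 Zfp genes with a peak, 32.6% were listed as higher and 17.9% as lower, against 31.0% and 34.6% of all genes with a peak. So the Zfp genes with peaks differed from other genes with peaks chiefly in how few were listed as lower, a difference that was not tested. The changes were small. Zfp genes had a median of 0.41 on the log2 scale, against 0.26 over all listed genes, and a median size of 0.65, against 0.81, in the authors' deposited table. A change of at least 2-fold was listed for 26 of the 138 (18.8%), 16 higher and 10 lower, against 39.7% of all listed genes.

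Higher expression at day 4 was listed for 60 of 93 Zfp genes with a peak (64.5%) and for 29 of 45 without (64.4%), against 47.2% and 57.2% of all listed genes with and without a peak, in the authors' deposited table. Neither difference was tested. Of the Zbtb genes, 14 were higher and 8 lower at day 4. The median of the mean normalized count was 465 for listed Zfp genes with a peak and 87.2 for those without, in the authors' deposited table.

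With a floor of 100 on the mean normalized count, Zfp53 rose most, by 2.07 on the log2 scale (SE 0.12, 4.21-fold, adjusted p 4.9e-62) in the authors' deposited table. Its neighbour on chromosome 17, Zfp52, was higher by 0.89 (SE 0.12) in the authors' deposited table. Their starts share no run of more than 16 bases in the promoter windows. Those windows reach at most 50 bases into the transcript, so the rest of the 2 transcripts was not compared. Reads that fit both genes cannot be told apart here. After Zfp53, the rises in the authors' deposited table were Zfp174 (1.33), Zfp949 (1.33), Zfp750 (1.19), Zfp467 (1.14), Zfp60 (1.07), Zfp821 (1.05) and Zfp438 (0.95). All 8 had a peak on at least 1 day. Zfp60 had 6 peaks at day 4 and 1 at day 0, while Zfp174, Zfp467, Zfp438 and Zfp949 had peaks at day 4 only.

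Under the same floor, the Zfp genes that fell most, per the authors' deposited table, were Zfp367 (-1.48, SE 0.17), Zfp280c (-1.36), Zfp639 (-1.25), Zfp593 (-1.14), Zfp275 (-1.12), Zfp101 (-1.11), Zfp36l2 (-1.08) and Zfp961 (-0.93). Zfp367, Zfp280c and Zfp101 had no listed peak. Zfp275 had 2 peaks at day 4 and 6 at day 0, and Zfp961 had its 2 peaks at day 0 only. The read-through gene Zfp91Cntf carries the Ensembl identifier that also stands for Zfp91, and its change of 0.25 (SE 0.10) in the authors' deposited table cannot be told apart from one of Zfp91. Zfp692 carries another gene's description in the files, so its value of -0.44 in the authors' deposited table is uncertain.

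**Figure D4:**
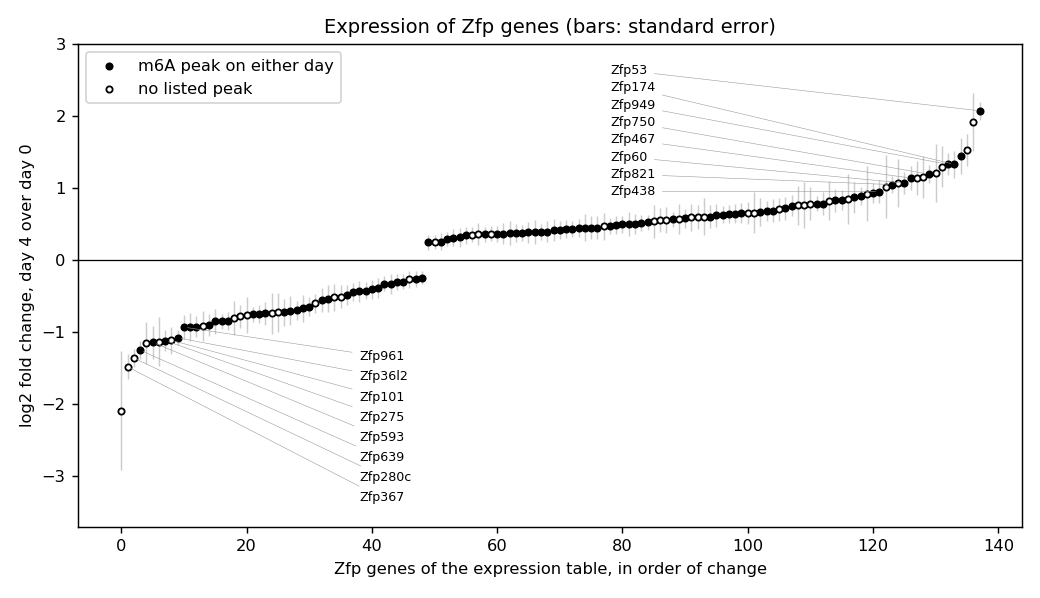
Log2 fold change of expression, day 4 over day 0 (vertical), with its standard error, for the 138 Zfp genes of the authors' deposited table in order of change (horizontal). Filled circles are genes with an m6A peak on either day and open circles genes with none. To the right of the step 89 genes are higher at day 4, and to its left 49 are lower; Zfp53, at 2.07, is the highest.

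Both changes were listed for 27 Zfp genes, 25 of them with a finite methylation value. Of the 25, 13 gained m6A with higher expression, 5 gained it with lower expression, 3 lost it with higher and 4 lost it with lower expression, in the authors' deposited tables. Zfp53 had changes of 2.83 in methylation and 2.07 in log2 expression, and Zfp821 of 4.98 and 1.05, in the authors' deposited tables. Opposite changes were seen in Zfp148, with 5.36 in methylation and -0.41 in log2 expression, in Zfp64, with 1.39 and -0.92, and in Zfp777, with 1.75 and 1.90 at its 2 sites and -0.65, in the authors' deposited tables. The other two with a gain and lower expression were Zfp282 and Zfp36l2. The 3 with a loss and higher expression were Zfp62 (-0.87 in methylation, 0.26 in log2 expression), Zfp260 (-0.53 and 0.51) and Zfp954 (-1.84 and 0.68), in the authors' deposited tables. Among all 25 genes with gains only, 14 were higher, 5 lower and 6 not listed, against 38.2% higher and 32.5% lower over all genes with gains only. Of the 19 with losses only, 4 were higher, 4 lower and 11 not listed, against 26.5% higher and 36.6% lower over all genes with losses only. Both tables use the same days and partly the same libraries, and a gene's level bears on whether a site can be called, so the pairs are given as a description.

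**Figure D5:**
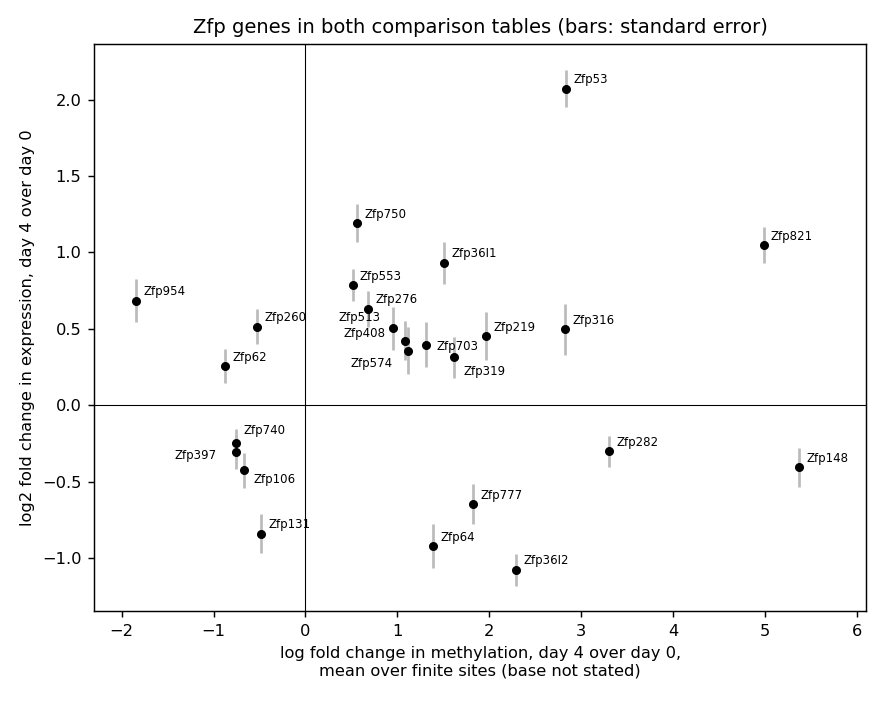
Log2 fold change of expression with its standard error (vertical) against the mean log fold change in methylation over finite sites (horizontal, base not stated), both day 4 over day 0, for 25 Zfp genes. Each point is 1 gene. Upper right are 13 genes with a gain and higher expression, lower right 5 with a gain and lower expression.

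Promoters were read because more of the listed Zfp genes were higher than lower at day 4 (89 against 49). The windows are the 250 bases before the RefSeq start, and those of the gene that rose most and the gene that fell most under the floor of 100 are shown, with CCAAT and its reverse ATTGG in capitals.
Zfp53: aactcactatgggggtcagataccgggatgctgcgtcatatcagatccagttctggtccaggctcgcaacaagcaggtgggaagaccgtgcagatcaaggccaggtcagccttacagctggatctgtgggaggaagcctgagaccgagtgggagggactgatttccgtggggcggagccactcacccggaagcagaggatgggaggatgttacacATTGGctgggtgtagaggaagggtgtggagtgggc
Zfp367: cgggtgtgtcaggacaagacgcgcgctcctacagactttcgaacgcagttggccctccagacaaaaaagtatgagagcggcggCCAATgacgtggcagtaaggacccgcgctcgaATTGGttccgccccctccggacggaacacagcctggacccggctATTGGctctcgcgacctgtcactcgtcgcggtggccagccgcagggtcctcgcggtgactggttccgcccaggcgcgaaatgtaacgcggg
The Zfp53 window is chr17:21488738-21488987 on the plus strand and the Zfp367 window chr13:64153200-64153449 on the minus strand (GRCm38.p6), the upstream one of its 2 windows. Zfp53 has 1 match, 35 bases from the start, and Zfp367 has 3, at 167, 135 and 91 bases. The other Zfp367 window, chr13:64152374-64152623, has 0 matches. A match on either strand was found in 170 of 331 Zfp genes with a window (51.4%), against 39.5% of 17491 genes. It was found in 60.9% of Zfp genes listed as higher at day 4 and in 54.1% of those listed as lower, against 41.2% and 40.9% over all genes. The motif GGGCGG, searched likewise on both strands, was found in 42.3% of Zfp genes and 45.8% of all genes. Among genes with a peak the shares with GGGCGG were 51.6% for Zfp genes and 68.4% for all, and among those higher at day 4 they were 52.2% and 63.4%. ATTGG and GGGCGG can overlap by their shared G letters, and such overlaps count for both. Median GC content was 54.0% in Zfp windows and 55.6% in all. In Zfp genes with m6A gains only it was 64.4% (19 genes) and in those with losses only 54.8% (16 genes), against 61.2% and 61.6% over all genes. These matches are descriptions of letters and say nothing of a bound factor.

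Among the listed partners of KRAB zinc finger proteins and other chromatin genes set beside them, more were lower than higher at day 4. The set of 23 genes held the Trim28, Setdb1, HP1, NuRD and HUSH machinery. It also held Dnmt1, Uhrf1, Atrx, Daxx and Smarcad1, which are not part of that machinery. The authors' deposited table gave 4 of the 23 as higher, 11 as lower and 8 not at all. The median was -0.42 on the log2 scale over those listed, against -0.30 over all listed genes with a peak. Of the 23, 21 had a peak on at least 1 day (34.5% of all protein-coding genes had one), and 34.6% of all genes with a peak were listed as lower. Those that fell most, per the authors' deposited table, were Uhrf1, a reader of hemimethylated DNA (-2.03, SE 0.15), Rbbp7, a histone-binding NuRD subunit (-1.32, SE 0.12), Cbx5, which encodes HP1 alpha (-0.90, SE 0.13), and the DNA methyltransferase Dnmt1 (-0.86, SE 0.12). Trim28 itself was lower by a log2 change of -0.24 (SE 0.09), and the largest rises were those of Atf7ip, a partner of Setdb1 (0.71, SE 0.15), and Chd4 (0.33), in the authors' deposited table. Peaks were listed for 18 of the 23 at day 4 and for 21 at day 0. Uhrf1 had none at day 4 and 4 at day 0.

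The 9 called sites in these genes were 6 losses and 3 gains, in a table where 31.2% of sites are losses and 68.8% gains. In the authors' deposited table the losses were -1.50 in the H3K9 methyltransferase gene Setdb1, -0.93 in Mphosph8 and -0.87 and -0.71 in Fam208a, both of the HUSH complex, and -0.93 and -0.80 in the remodellers Smarcad1 and Atrx. The gains in the authors' deposited table were those of Mta2 (2.64), Mta1 (3.05) and Dnmt1 (3.16). Each of the 6 losses lay in peaks of both days. Of the gains, that of Mta2 lay in peaks of both days, that of Mta1 in a day 4 peak only and that of Dnmt1 in no listed peak.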

How the data were processed

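Polyadenylated RNA of primary mouse keratinocytes was profiled by m6A immunoprecipitation and input sequencing at day 4 and day 0, with 3 libraries of each kind per day, grouped by title. HISAT2 2.1.0, DESeq2 1.18.1 and the genome build mm10 are named in the submitters' processing notes; the sources used here do not give the peak caller, the joining of replicates or the methylation test. Per the file headers, each peak has an enrichment score and an unadjusted p-value from the authors. The authors' expression table holds a mean normalized count, a signal averaged over libraries, beside the log2 fold change, the standard error of it and an adjusted p-value. In the deposited methylation table each site has an FDR and a log fold change, which is treated as a score. Both list only entries under 0.05, so an unlisted gene was not called or not tested. No label says that the replicates are separate cultures or animals, so the p-values cover the spread of these libraries alone, and that spread could be technical. No column per library was used.

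Zfp rows were taken by name (a digit after Zfp). Overlaps were found with bedtools 2.31.1, requiring the same strand and at least 1 bp; gene ends and promoter windows came from RefSeq tables of GRCm38.p6, in which 183 of the 184 Zfp genes with peaks were found. The number tested was inferred from the adjusted p, its rank and the p, a step tested on simulated data. Python 3.11.15, pandas 2.3.3, numpy 2.4.6 and matplotlib 3.10.9 were used. Members and lists were chosen with earlier results of these data known. Genes named are all those with called sites, the 5 peaks and genes highest by score or number per day, the 8 largest rises and falls at a mean of at least 100, the 5 highest single-day genes per day, and the role and co-repressor lists. Zfp76, 1 of the activators listed, matched no name. Alternatives were stricter p-values and FDR, a 2-fold change, a count minimum, other overlap and distance rules and other ways to count sites.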

Additional observations from a re-analysis of the deposited data

How the results depend on the processing

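Of 47 alternatives computed for 21 results, 36 stayed within 1.5 times the reported count or near the reported share. At an FDR under 0.01 the called Zfp sites were 23 gains and 7 losses, against 35 and 23 under 0.05. Over all genes the called sites were 988 gains and 374 losses under 0.01, against 1763 and 798 under 0.05. The lower share of gains among Zfp sites than among all sites was thus not seen at the stricter limit. Counting only sites in a listed peak left 18 gains and 19 losses, so that gains minus losses turned to -1, against 12 over all called sites; this follows from the 17 gains outside peaks. With at least a 2-fold change, 16 Zfp genes were higher and 10 lower at day 4, a difference of 6, against 40 at any size. The share of Zfp peaks near the 3′ end was 7.46% at day 4 and 7.83% at day 0 within 500 bp, and 31.7% and 32.2% within 2000 bp. Over all peaks it was 20.8% at day 4 and 18.9% at day 0 within 500 bp, and 46.0% and 44.7% within 2000 bp. Dropping peaks with an unadjusted p of 1e-05 or above, as an alternative for joined regions, single-day genes and the 3′ share, was chosen after seeing the data and moved none of them past these limits. Exon blocks of peaks and the number of fingers per protein, both planned, were not run. No paired analysis was possible because the tables carry no column per library, and for the same reason no replicate could be left out. Depth, which limits the listing of peaks in low transcripts, is unknown here.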
